A study of Homo sapiens with 3 samples.

Results

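Integrins are cell surface receptors that hold cells to the extracellular matrix, and each is a pair of 1 α and 1 β subunit. The α subunit largely sets which matrix protein is bound, and the β tail recruits talin and kindlin, which link the receptor to actin. Human pluripotent stem cells depend on this attachment for survival, and they are grown on laminin, on vitronectin or on mixtures that contain them. The RNA of 10 integrin subunit genes was examined here in H9 cells, an established human embryonic stem cell line. They are 6 α subunit genes (ITGA2, ITGA3, ITGA5, ITGA6, ITGA7 and ITGAV) and 4 β subunit genes (ITGB1, ITGB3, ITGB4 and ITGB5), chosen by name as subunits of laminin, fibronectin and vitronectin receptors, from the 58051 genes with deposited counts. All 10 were found by Ensembl identifier, and they are 10 of the 26 integrin subunit genes.

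Total RNA of 3 replicates of wild-type, untreated H9 cells was sequenced after ribosomal RNA depletion. The cells were kept in Essential 8 Flex medium on plates coated with Vitronectin-XF, so the culture surface was a ligand of αV integrins. With 1 condition, 1 cell line and no other matrix, no groups can be compared, and whether the replicates are separate cultures is not stated. Totals were between 8655155 and 12024802 counts, and the 10 genes held 0.121%, 0.121% and 0.115% of them in replicates 1, 2 and 3. To compare genes of unequal length, reads per base of exon (GENCODE release 44, all exons of a gene joined) were scaled to a fixed library total. The result, TPM, is a level per unit of length. Because this is bulk RNA, fewer cells of a type and less RNA per cell cannot be told apart. The 6 marker genes of pluripotent cells, among them POU5F1 at 799 ± 24.9 TPM (SD, n = 3), summed to between 5937 and 6023 TPM in each replicate. The 8 leukocyte and platelet markers summed to between 2.46 and 4.51 TPM, with no read on 2 of them, CD14 and GP9, and the integrin gene ITGA2B, itself on that list, made up 1.97 ± 0.204 TPM. The 8 fibroblast markers summed to between 183 and 201 TPM, of which THY1 made up 145 ± 11.2 TPM. COL1A2 and COL1A1, on the same list, were in the medium class at 25.6 ± 1.67 and 14.6 ± 1.43 TPM. COL3A1, POSTN and PDGFRB were in the low class at 2.71 ± 0.246, 1.45 ± 0.292 and 1.09 ± 0.233 TPM, while DCN had 10 reads and LUM 4 in all. The 6 epithelial markers summed to between 530.0 and 549.7 TPM. CDH1 had 291 ± 8.77 TPM and EPCAM 251 ± 19.6 TPM, both in the high class. TP63 had 0.225 ± 0.0424 TPM, and no read was counted on KRT1, KRT5 or KRT14. The 6 endothelial and muscle markers summed to between 77.2 and 80.5 TPM, of which KDR made up 76.5 ± 1.71 TPM. PECAM1 had 0.288 ± 0.0833, CDH5 0.101 ± 0.0962, DES 0.860 ± 0.118 and ACTA1 0.791 ± 0.166 TPM, and MYOD1 had no read. Whether H9 cells themselves or other cells expressed the genes on these lists cannot be told from bulk RNA. The part of any other cells in the integrin levels was not tested.

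The RNA of the 10 genes spanned a wide range, with ITGB5, ITGB1 and ITGA6 at the top and ITGB4 and ITGB3 at the bottom. Classes followed the methods of the study, with a nonexpressed class under 0.01 TPM and low, medium and high classes of equal size above it. Each of these 3 classes held 28.8% of the 19629 protein-coding genes. Of the 2661 nonexpressed protein-coding genes, 2653 had no read, so few genes with any read fell in that class. Of the 10 subunits, 3 were in the high class, 5 in the medium class, 2 in the low class and none was nonexpressed, though ITGB3 had only 5 reads in all. Each kept its class when the replicates were classified alone. Their median was 16.3 TPM, against 7.10 TPM over all protein-coding genes.

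**Figure D1:**
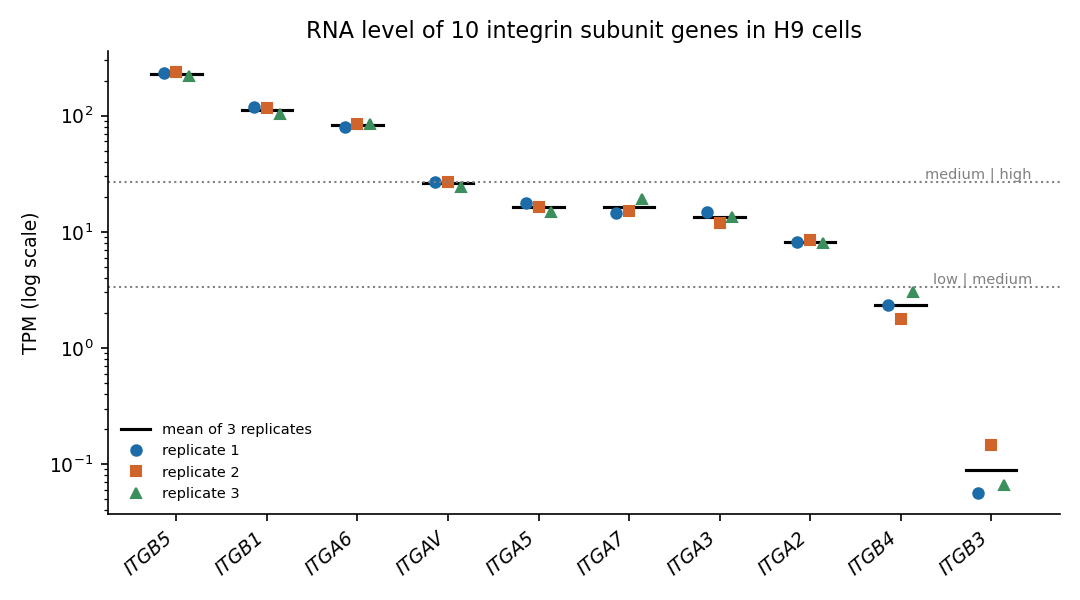
TPM (log axis) of 10 integrin subunit genes in each of 3 H9 replicates (symbols), with the mean (black bar), in order of the mean. Dotted lines mark the class boundaries at 3.35 and 26.96 TPM, and ITGAV, at 26.1 TPM, sits just under the upper one.

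Among β subunits, ITGB5 (ENSG00000082781, chromosome 3, 124761948 to 124901418, minus strand) encodes the partner of αV in the αVβ5 vitronectin receptor. It had 3984, 4714 and 3166 reads, which is 235, 239 and 219 TPM in replicates 1, 2 and 3, with a mean of 231 ± 10.6 TPM (SD, n = 3). This placed it at rank 569 of the protein-coding genes. ITGB1 (ENSG00000150093, chromosome 10, 32887273 to 33005792, minus strand) encodes β1, the subunit shared by most matrix receptors, including all those of α2, α3, α5 and α7. It had more reads than ITGB5, at 4525, 5099 and 3346, but a lower level per length, at 119, 116 and 104 TPM, with a mean of 113 ± 8.30 TPM and rank 1418. The levels of both genes did not overlap, and ITGB5 was 2.05 ± 0.0749 times ITGB1 within a replicate.

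The order of ITGB5 and ITGB1 depended on the length by which counts were divided. The union of all exons of the 36 annotated ITGB1 transcripts is 14561 bp, and the transcript that Ensembl marks as canonical has 3735 bp, a ratio of 3.90. For ITGB5 the lengths are 6515 and 4440 bp, a ratio of 1.47, and over all protein-coding genes the median ratio is 1.31. Divided by canonical transcripts, ITGB1 had 266 ± 18.5 TPM and ITGB5 205 ± 8.63 TPM, and ITGB5 was 0.771 ± 0.0282 times ITGB1. With the longest transcript as length, ITGB1 had 220.3 ± 15.5 TPM and ITGB5 255 ± 11.0 TPM. The counts per gene do not show which transcripts were present, and the order of these genes cannot be told from them. Both were in the high class under each of the 3 lengths.

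**Figure D2:**
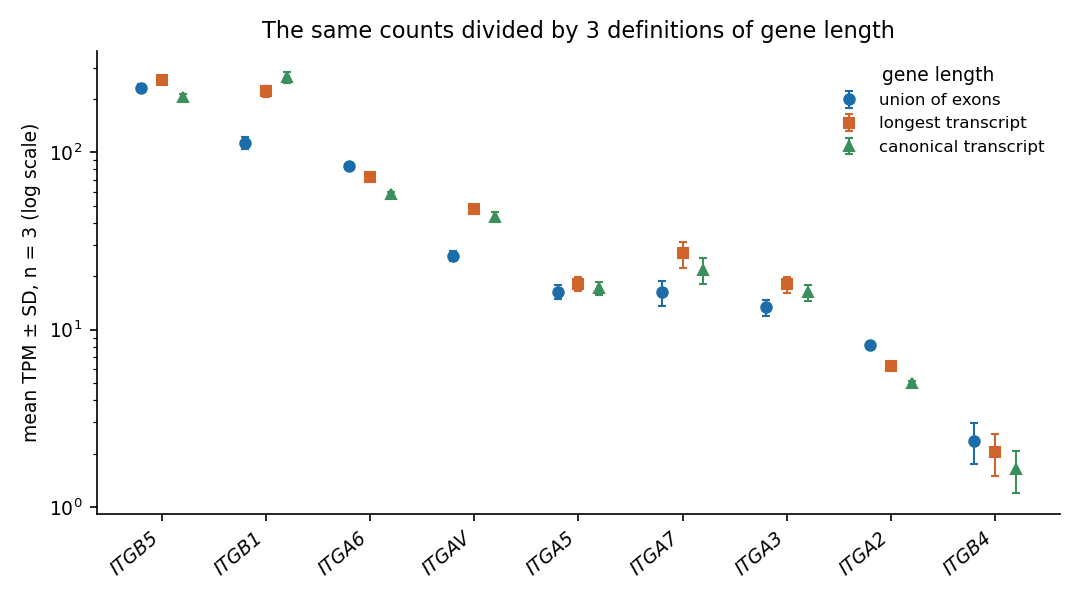
Mean TPM ± SD over 3 replicates (log axis) of 9 integrin subunit genes, from the same counts divided by the union of exons, the longest transcript or the canonical transcript. ITGB1 rises from 113 to 266 TPM between the first and the last, and ITGAV from 26.1 to 43.3 TPM, while ITGA6 goes from 83.4 to 57.8 TPM.

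ITGB4 and ITGB3 were low. ITGB4 (ENSG00000132470, chromosome 17, 75721328 to 75757818, plus strand) encodes β4, which pairs with α6 alone and anchors epithelial hemidesmosomes. It had 41, 36 and 45 reads, or 2.33, 1.76 and 3.00 TPM, a mean of 2.36 ± 0.620 TPM (SD, n = 3). Its partner ITGA6 was at a mean of 37.1 ± 10.3 times that level. ITGB3 (ENSG00000259207, chromosome 17, 47253827 to 47313743, plus strand) encodes β3, the other classical partner of αV at vitronectin and the platelet fibrinogen receptor subunit. It had 1, 3 and 1 reads. A count of 0 allows up to 3 counts, which for ITGB3 is 0.145 to 0.198 TPM, so no replicate was above that limit (it covers counting error only). ITGB3 shares 33.2% of its exon length with ENSG00000259753 on the same strand, and how reads over the shared bases were counted is not given. No read was counted on ENSG00000259753 either, and 4563 bp of ITGB3 exons lie outside same-strand genes.

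Among α subunits, ITGA6 (ENSG00000091409, chromosome 2, 172427354 to 172506459, plus strand) was highest. It encodes α6, the laminin receptor subunit that pairs with β1 or β4 and is used as a surface marker of pluripotent cells. It had 1396, 1721 and 1258 reads, or 80.3, 85.1 and 84.9 TPM, a mean of 83.4 ± 2.73 TPM (SD, n = 3). ITGA6 was below ITGB1 in every replicate, and it was 3.20 ± 0.268 times ITGAV, the next α subunit in order. With canonical lengths that ratio was 1.34 ± 0.112, and ITGA6 was still higher in every replicate.

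ITGAV (ENSG00000138448, chromosome 2, 186590010 to 186680901, plus strand) encodes αV, which binds vitronectin and fibronectin through their RGD motif. It had 1359, 1587 and 1041 reads, or 27.0, 27.1 and 24.3 TPM, a mean of 26.1 ± 1.62 TPM. The boundary of the high class was 26.96 TPM for the mean and between 28.6 and 29.0 TPM in single replicates, so ITGAV lay less than its SD below the first. ITGB5 was 8.85 ± 0.165 times ITGAV, and 4.73 ± 0.0882 times with canonical lengths.

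ITGA5 (ENSG00000161638, chromosome 12, 54395261 to 54419266, minus strand) encodes α5 of the fibronectin receptor α5β1. It had 17.7, 16.4 and 14.8 TPM, a mean of 16.3 ± 1.46 TPM. ITGA7 (ENSG00000135424, chromosome 12, 55684568 to 55716404, minus strand) encodes a laminin receptor subunit best known from muscle. It had 14.5, 14.99 and 19.3 TPM, a mean of 16.3 ± 2.65 TPM, and replicate 3 was the high one. ITGA3 (ENSG00000005884, chromosome 17, 50055968 to 50090481, plus strand) encodes α3, the subunit of the α3β1 receptor for laminins with an α3 or α5 chain. It had 14.7, 11.9 and 13.5 TPM, a mean of 13.4 ± 1.39 TPM. The ranges of ITGA5 and ITGA7 overlapped, as did those of ITGA7 and ITGA3, and each of these orders held in 2 of 3 replicates. ITGA2 (ENSG00000164171, chromosome 5, 52989340 to 53094779, plus strand) encodes α2 of the collagen and laminin receptor α2β1. It was lowest of the 6 α genes in every replicate, at 8.17, 8.50 and 7.93 TPM, a mean of 8.20 ± 0.283 TPM. All other neighbors in the order of the 10 genes had ranges that did not overlap.

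ITGA3, ITGA6 and ITGA7, the closely related α genes of the main laminin receptors, were unequal. ITGA6 made up 73.8 ± 1.97% (SD, n = 3) of the summed TPM of ITGA3, ITGA6 and ITGA7, ITGA7 14.3 ± 1.79% and ITGA3 11.9 ± 1.43%. With canonical lengths the share of ITGA6 was 60.5 ± 2.46%. Over all 18 α subunit genes, ITGA6 held 43.6 ± 1.48% of the summed TPM and ITGAV 13.6 ± 0.920%, or 31.4 ± 1.24% and 23.5 ± 1.57% with canonical lengths. Over all 8 β subunit genes, ITGB5 held 65.8 ± 0.644% and ITGB1 32.1 ± 0.873%, or 42.9 ± 0.817% and 55.7 ± 0.987% with canonical lengths. The α genes together had 191 ± 1.23 TPM and the β genes 351 ± 17.99 TPM. Their ratio was 0.546 ± 0.0319, and it stayed below 1 with the longest or the canonical transcript as length, at 0.452 ± 0.0293 and 0.388 ± 0.0251. These are ratios of RNA, and protein at the cell surface was not measured.

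Windows around annotated transcription start sites were taken from RefSeq (GRCh38.p14), 250 bases before to 50 bases after the start, and 6 of the 10 genes had one. Of a gene's windows, the one nearest its RefSeq gene start was taken, so other starts of these 6 genes are not described. For ITGB1 it lies inside the GENCODE span of the gene, which ends at 33005792. The window of ITGB1, the member with the most reads, and that of ITGA2, the member with the fewest reads among those 6, are shown to set their sequence beside that difference in reads. Capitals mark GC boxes (GGGCGG or its complement CCGCCC) and the TATA motif (TATAAA or TTTATA), each searched on both strands, and matches of both TATA words may overlap each other. The window of ITGB1 is chr10:32958181-32958480 (minus strand) and that of ITGA2 is chr5:52989102-52989401 (plus strand), each read 5′ to 3′.
ITGB1: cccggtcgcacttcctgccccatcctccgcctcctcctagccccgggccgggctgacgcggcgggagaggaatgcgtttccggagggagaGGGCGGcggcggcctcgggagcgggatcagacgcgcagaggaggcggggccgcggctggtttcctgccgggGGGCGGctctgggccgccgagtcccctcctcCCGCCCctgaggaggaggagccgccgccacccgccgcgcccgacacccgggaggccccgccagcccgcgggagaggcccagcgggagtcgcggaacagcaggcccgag
ITGA2: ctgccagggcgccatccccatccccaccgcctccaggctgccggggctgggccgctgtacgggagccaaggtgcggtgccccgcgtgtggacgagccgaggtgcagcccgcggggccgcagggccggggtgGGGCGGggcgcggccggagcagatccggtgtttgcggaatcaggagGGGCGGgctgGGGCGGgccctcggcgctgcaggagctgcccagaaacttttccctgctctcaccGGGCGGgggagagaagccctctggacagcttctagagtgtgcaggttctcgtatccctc

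Both windows were rich in G and C. That of ITGB1 had 78.3% GC, 39 CpG dinucleotides and 3 GC boxes, and that of ITGA2 had 72.7% GC, 27 CpG dinucleotides and 4 GC boxes. No TATA motif was found in either. Among the other 4 genes, GC content was 70.7% for ITGAV, 69.3% for ITGA5, 53.0% for ITGA6 and 49.7% for ITGB5, and only the window of ITGA6 held a TATA motif, on the minus strand. At least 1 GC box was found in 5 of the 6 windows, ITGAV being the exception, and in 44.95% of all 35116 windows of this length. A TATA motif was in 11.5% of all windows, and their median GC content was 58.7%, with a median of 14 CpG dinucleotides. A match is a description of the letters in a window and shows no binding.

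The other 16 integrin subunits were mostly at the lower end. Of them, 3 were in the medium class, 12 in the low class and 1 was nonexpressed, with a median of 0.434 TPM. The medium and low classes each held 28.8% of all protein-coding genes. The 3 in the medium class were ITGA9, a partner of β1, at 12.08 ± 0.754 TPM, ITGAE, the partner of β7 on mucosal lymphocytes, at 8.85 ± 1.21 TPM, and ITGB8, a partner of αV, at 4.33 ± 0.484 TPM. When the replicates were classified alone, ITGB8 was in the low class in replicates 1 and 3. ITGA2B, the platelet partner of β3, had 1.97 ± 0.204 TPM, and ITGA1, a collagen receptor subunit, 1.93 ± 0.164 TPM. ITGA11, the α subunit of another collagen receptor, had 0.967 ± 0.293 TPM, and ITGA4, whose product binds fibronectin and VCAM1, had 0.815 ± 0.171 TPM. The leukocyte gene ITGB2 had 0, 1 and 2 reads, ITGAM 0, 0 and 2 and ITGB6, a further partner of αV, 0, 0 and 1, none above the limit of 3 counts. ITGB7, ITGAX, ITGAL, ITGA10 and ITGA8 had between 0.194 and 0.524 TPM. No read was counted on ITGAD, which allows up to 0.226 to 0.308 TPM. The 10 members held 94.0 ± 0.303% of the summed TPM of all 26 genes. ITGAE shares 6.47% of its exon length with HASPIN, a kinase gene on the opposite strand that had 1117 reads and was named after its values were seen. Likewise named for its overlap, PELO shares 499 bp with ITGA1 on the same strand and had 1069 reads, or 245 reads per kb against 15.2 for ITGA1. ZNF740, also named for its overlap, lies on the opposite strand, shares 42.3% of the exon length of ITGB7 and had 1327 reads. The part of these genes' reads in the levels of ITGAE, ITGA1 and ITGB7 was not tested.

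**Figure D3:**
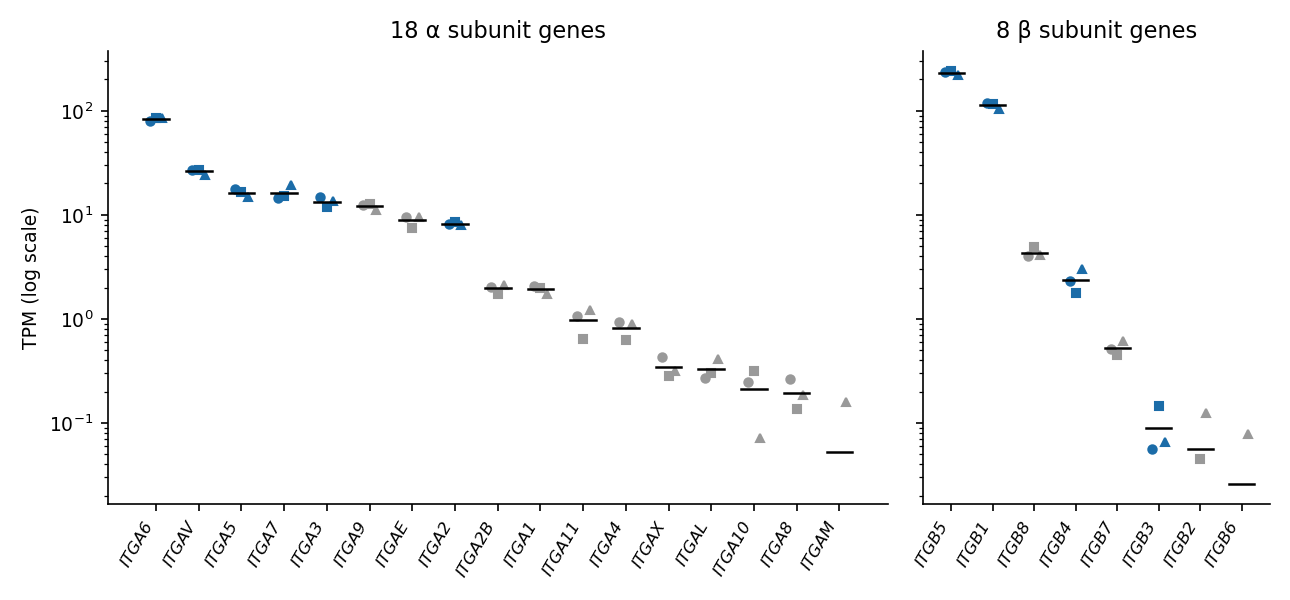
TPM (log axis) of the α (left) and β (right) integrin subunit genes in 3 replicates (circle, square and triangle for replicates 1, 2 and 3), with the mean as a bar, members of the examined set in blue and other subunits in gray. Values of 0 cannot be drawn on a log axis, so ITGAD, with no read, is left out. ITGA6, ITGAV, ITGB5 and ITGB1 stand above every other subunit of their kind.

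The matrix proteins that these receptors bind were examined in a list of 28 ligand genes. Of these, 12 were in the high class, 9 in the medium and 7 in the low class, with a median of 19.4 TPM, against 28.8% of all protein-coding genes in each class. The RNA of VTN, which encodes vitronectin, was low in cells grown on supplied vitronectin, with 6, 7 and 6 reads and a mean of 1.28 ± 0.120 TPM. With so few reads, counting error alone is 39.7% of the level in a replicate. VTN shares 17.3% of its exon length with annotation on the same strand, whose part in this level was not tested. FN1, which encodes fibronectin, had 51.6 ± 1.43 TPM. Of the laminin chains, LAMC1 had 145 ± 1.69 TPM, LAMA1 51.0 ± 3.14 TPM, LAMB1 38.8 ± 2.07 TPM and LAMA5 22.1 ± 4.79 TPM. With the longest transcript as length, LAMB1 passed LAMA1, at 80.5 ± 4.03 against 58.7 ± 3.45 TPM. The canonical transcript gave 77.0 ± 3.80 TPM for LAMB1 and 50.6 ± 2.96 TPM for LAMA1. MFGE8, a secreted RGD protein that binds αVβ3 and αVβ5, had 133 ± 23.0 TPM, and TGFB1, whose latent form binds αV integrins, 60.7 ± 3.79 TPM. LAMC1 was highest of the 28 with the union of exons as length, and MFGE8 was highest with the canonical transcript, at 346 ± 61.2 TPM against 93.0 ± 0.844 TPM for LAMC1.

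Cytoplasmic adaptors and kinases of integrin adhesions were examined in a list of 31 genes. Of these, 18 were in the high class, 7 in the medium and 6 in the low class, with a median of 29.9 TPM. Each class held 28.8% of all protein-coding genes. With the union of exons as length, the 3 highest were the actin crosslinker FLNA at 570.0 ± 28.4 TPM, the adhesion scaffold VCL at 209 ± 10.7 TPM and ZYX, a zinc-binding adhesion protein, at 203 ± 18.4 TPM. With the canonical transcript, ACTN1, an actin crosslinker gene named after its values were seen, passed ZYX, at 198 ± 1.68 against 179.8 ± 16.6 TPM. Of the talins, which bind β tails and activate integrins, TLN1 had 94.6 ± 2.93 TPM and TLN2 19.2 ± 1.71 TPM. Of the kindlins, coactivators with talin, FERMT2 had 69.4 ± 2.76 TPM and FERMT1 27.1 ± 0.526 TPM, while FERMT3, the kindlin of blood cells, had 0.894 ± 0.290 TPM. The integrin-linked pseudokinase gene ILK had 97.2 ± 4.60 TPM and PTK2, which encodes focal adhesion kinase, 53.0 ± 1.66 TPM. Of the exon length of ILK, 78.5% is shared with annotation on the opposite strand. The part of reads from that strand in the level of ILK was not tested.

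**Figure D4:**
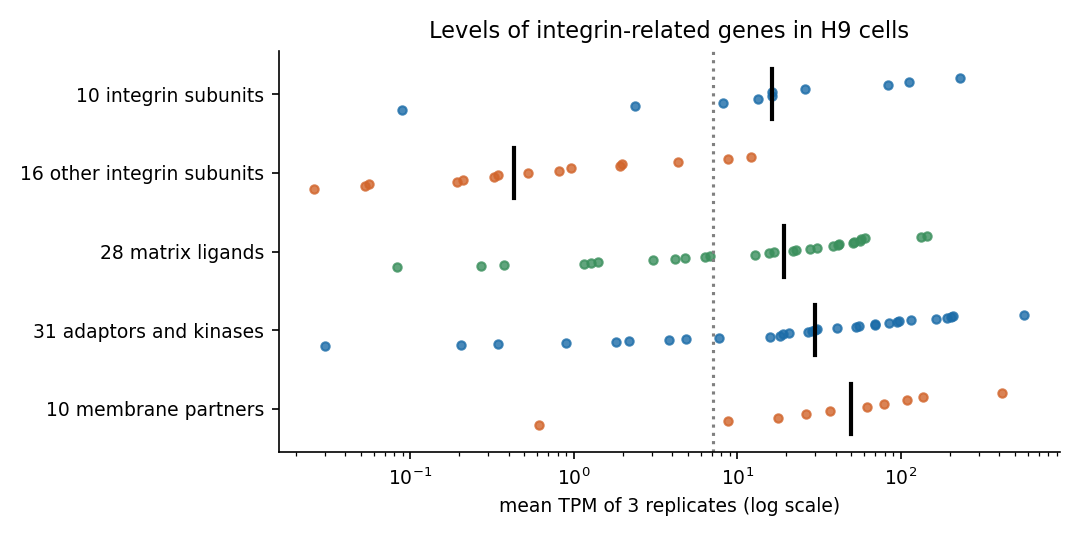
Mean TPM of 3 replicates (log axis) of single genes (points) on 5 lists, with the median of each list (black bar) and of all protein-coding genes (dotted line, 7.10 TPM). Genes without reads cannot be drawn, and the 10 integrin subunits spread from 0.0891 to 231 TPM.

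The spread of each gene between libraries was compared with counting error. Each replicate's count was set against the pooled count of the others by a two-sided exact binomial test, with adjustment over the 18451 genes with at least 20 counts, and 9 of the 10 members had that many (ITGB3 did not). The test compares libraries, not conditions. In replicate 3, 4 of the 9 members departed from the other libraries (1 higher and 3 lower), where 5.38% of all genes tested were higher and 6.74% lower. Of the 13407 genes with at least 100 counts, as all 9 members had, 16.1% were called in replicate 3. The test calls smaller shifts in genes with more reads, so these shares are not matched to the members for read number. In replicate 1, 1 member was higher and none lower, against 2.11% and 1.62% of all genes. In replicate 2, none departed in either direction, against 1.22% and 1.35% of all genes, though 3 members (ITGA3, ITGB1 and ITGB5) had an unadjusted p below 0.05 in this exact test.

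ITGA7 was higher in replicate 3, with 389 reads against 342 and 412 in deeper libraries, and a log2 ratio of 0.38 (95% counting interval 0.20 to 0.56, exact binomial test, adjusted p = 0.000782). ITGB1 was lower in replicate 3, with a log2 ratio of -0.19 (-0.25 to -0.13, adjusted p = 4.57e-09, same exact test). ITGB5 was also lower, at -0.12 (-0.18 to -0.06, adjusted p = 0.000859, exact test), as was ITGAV, at -0.165 (-0.27 to -0.06, adjusted p = 0.0168, exact test). Exon GC content, a property by which libraries can differ, is 55.0% for ITGA7, 54.0% for ITGB5, 41.8% for ITGB1 and 36.7% for ITGAV. After correction for GC content, ITGA7, ITGB1 and ITGB5 still departed, at 0.37, -0.11 and -0.13 (adjusted p of 0.00207, 0.00764 and 0.000583, exact tests), and ITGAV did not, at -0.09 (adjusted p = 0.378, exact test). ITGAV was not called with library totals as the only scaling either, nor when replicate 2 was left out. The call in replicate 1 was ITGB1, at 0.11 (adjusted p = 0.00227, exact test), and it was lost after GC correction, at 0.08 with adjusted p = 0.0558 in the same exact test, and when replicate 3 was left out. The median size of the log2 ratio in replicate 3 was 0.16 over the 9 members and 0.12 over the 13407 genes with at least 100 counts, of which 16.1% were called.

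**Figure D5:**
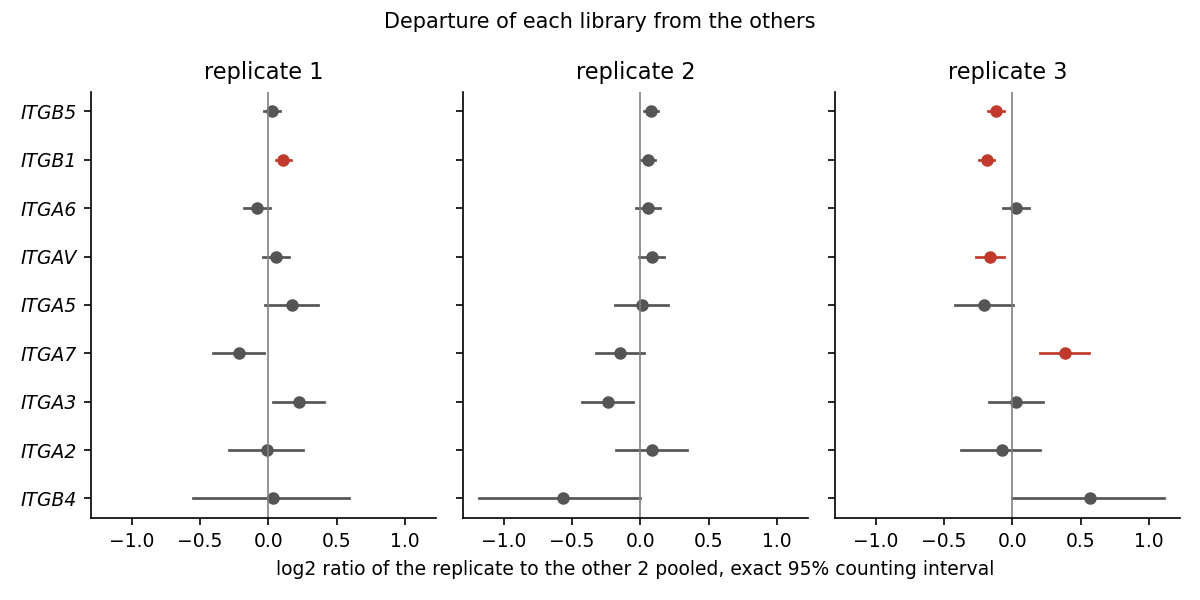
Log2 ratio of each replicate to the pooled others (points) with exact 95% counting intervals (lines) for 9 integrin subunit genes, red where the adjusted p of the exact binomial test was below 0.05. Red marks appear for ITGB1 in replicate 1 and for ITGB5, ITGB1, ITGAV and ITGA7 in replicate 3.

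Reads of neighboring genes can enter these counts, since the use of strand in the counting is not given. ITGA2, ITGA3, ITGB4 and ITGB5 share no exon bases with another annotated gene. ITGA5, ITGA6, ITGA7, ITGAV and ITGB1 share between 0.650% and 5.26% of their exon length with genes on the opposite strand. Of these neighbors, ITGB1-DT, a divergent noncoding RNA gene that shares 401 bp with ITGB1, had 8 reads in all, which is 1.88 reads per kb against 891 for ITGB1. ENSG00000227227, a noncoding gene with 35.6% of its exon length over ITGAV, had 136 reads, or 238 reads per kb against 206 for ITGAV. ITGA6-AS1 had 78 reads, or 72.4 per kb against 655 for ITGA6. The part of reads from ITGAV or ITGA6 in the counts of these noncoding genes was not tested.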

How the data were processed

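Total RNA of 3 H9 replicates was sequenced after ribosomal RNA depletion, from 750 ng of RNA with 8 PCR cycles. The authors trimmed reads with Trim Galore (0.4.4), aligned them to GRCh38 with TopHat2 (2.1.1) and deposited counts of reads per gene, without normalization, as their methods and processing notes give it. The abundances that they computed with Cufflinks (2.2.1) were not used. Which tool counted the reads, with which gene models and whether by strand, is not given in the sources used here. The libraries held 10390984, 12024802 and 8655155 counts, and intervals from them cover counting error only.

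Identifiers were matched to GENCODE release 44 (56948 genes, of which 19629 are protein-coding), on the same build. TPM was computed from the deposited counts with the union of exons as length, and averaged over replicates. An exact binomial test per gene, scaled by totals and TMM factors of edgeR (4.0.16), was adjusted by Benjamini-Hochberg over genes with at least 20 counts. The test was also run on counts simulated with counting error and planted changes, without other spread between libraries. That run cannot show how the test behaves on real replicates. The p-values of the test set the departure of 1 library from the others against counting error alone. They depend on read number as well as on the size of the shift, so they do not measure spread. A departure may be technical. With 1 group, edgeR's quasi-likelihood test could not be used. GC correction shifted each expected share by the median log2 ratio of its GC bin (20 bins). DESeq2 (1.42.0) size factors, other gene lengths, CPM, other filters and leaving out each replicate were alternatives. R 4.3.3, Python 3.11.15, scipy 1.17.1 and matplotlib 3.10.9 were used.

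The members and lists were chosen with earlier results of these data known. Named genes were the members, the other integrin subunits, the 3 highest genes of each list, VTN, FN1, LAMA1, LAMA5, LAMB1 and LAMC1 as ligands, the talins, kindlins, ILK and PTK2 as binders of β tails, and genes that share exon bases with a member. Marker genes were named to check the cell type. Genes outside this rule are given as such where they appear. Likeness of pattern was not computed, since 3 replicates of 1 condition give none.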

Additional observations from a re-analysis of the deposited data

How the results depend on the processing

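Scaling by TMM or DESeq2 factors, the median of replicates and leaving out each replicate moved no mean TPM of the 10 genes by as much as its SD. Of 3 values, leaving out 1 can never move the mean so far. Gene lengths and CPM moved more. With the longest transcript, mean TPM was 6.21 for ITGA2, 18.02 for ITGA3, 18.2 for ITGA5, 72.1 for ITGA6, 26.9 for ITGA7, 47.8 for ITGAV, 220.3 for ITGB1 and 255 for ITGB5. With the canonical transcript, an alternative chosen after seeing the data, it was 4.98 for ITGA2, 16.2 for ITGA3, 57.8 for ITGA6, 21.6 for ITGA7, 43.3 for ITGAV, 266 for ITGB1, 1.64 for ITGB4 and 205 for ITGB5. CPM, another unit, gave 16.4 for ITGA2, 33.2 for ITGA3, 30.5 for ITGA5, 141 for ITGA6, 37.4 for ITGA7, 128 for ITGAV, 415 for ITGB1, 0.154 for ITGB3, 4.05 for ITGB4 and 380.4 for ITGB5. With exon length outside same-strand genes, overlapping genes take a larger part of the TPM total, and the values were 6.03 for ITGA2, 9.85 for ITGA3, 12.0 for ITGA5 and for ITGA7, 61.4 for ITGA6, 19.2 for ITGAV, 83.1 for ITGB1, 1.74 for ITGB4 and 169.95 for ITGB5, with the order of the 10 genes as before. With mitochondrial genes left out, the total is smaller, and ITGA2 had 8.54 and ITGA6 86.9.

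The log2 ratio of ITGB5 to ITGB1, 1.03, was 0.21 with the longest transcript, -0.13 in CPM and -0.38 with the canonical transcript. The share of ITGB1 in the β sum, 32.1%, was 45.5%, 50.8% and 55.7% under the same alternatives. The ratio of the α to the β sum, 0.546, was 0.452 with the longest and 0.388 with the canonical transcript. Of 45 pairs of members, 1 changed order with the longest transcript (ITGA5 and ITGA7), 2 with the canonical transcript and 3 in CPM. The number of members in the high class, 3, was 7 with noncoding genes added to those classified. That addition moves the class boundaries for every gene, and the share of protein-coding genes then in the high class was not computed. ITGAV joined as the fourth with either transcript length or CPM.

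The number of members that departed in replicate 1 was 0 with GC content correction in place of 1. With a replicate left out, it was 0 to 3 for replicate 1, 0 to 4 for replicate 2 and 3 to 4 for replicate 3. For replicates 1 and 2 the highest values came from comparison with replicate 3 alone. The cause was not tested. The shares of all genes called under these settings were not computed, so these counts show nothing particular to the members. No paired analysis was possible because there is only 1 group. Depth limits ITGB3 and the other genes at or below 3 counts, whose levels are uncertain. For a gene with no read, a low level and no RNA cannot be told apart.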

Other observations

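A list of 10 membrane partners of integrins and hemidesmosome genes had a median of 49.7 TPM. Of these genes, 6 were in the high class, 3 in the medium and 1 in the low class, against 28.8% of all protein-coding genes in each. The highest level, 415 ± 65.0 TPM (SD, n = 3), was that of BSG, a membrane glycoprotein gene. It was higher than that of SLC3A2, whose product binds β1 tails and amino acid transporters, at 138 ± 3.55 TPM, and of the tetraspanin gene CD9, at 109 ± 5.22 TPM. With the canonical transcript as length, BSG was still highest and CD9 passed SLC3A2, at 312 ± 13.8 against 282 ± 6.66 TPM. Genes of hemidesmosomes were named beside ITGB4 after their values were seen. Among them, CD151, the tetraspanin that binds α3 and α6 integrins, had 62.6 ± 6.75 TPM and the cytolinker gene PLEC 36.9 ± 7.18 TPM. COL17A1, the transmembrane collagen of hemidesmosomes, had 11, 18 and 6 reads, a mean of 0.614 ± 0.232 TPM, which like ITGB4 at 2.36 TPM is in the low class.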
